A study of Mus musculus with 4 samples.

Results

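The C/EBP family, a group of basic leucine zipper (bZIP) transcription factors, has 6 genes in the mouse: Cebpa, Cebpb, Cebpd, Cebpe, Cebpg and Ddit3. SMAD4 peaks were assigned to these 6 of 20923 protein-coding genes when the summit, the base of highest signal, lay in the gene body or within 50 kb of a curated RefSeq transcription start site (TSS). A distance of 100 kb was used for Cebpa and Cebpb. A peak found in one replicate that overlapped a peak of the other by at least 1 bp was called shared, and each overlap is described as 1 region. The summit of a shared region is the midpoint between the summits of its peak of highest fold in each replicate. By this rule 25 of the 10964 shared regions of the series belonged to the family, and each of the 6 genes had at least 1. Over all protein-coding genes, 39.1% had at least 1 within 50 kb and 54.9% within 100 kb. Cebpa and Cebpg had the same regions in their windows. The rule uses distance alone and does not show which gene a region acts on.

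The series profiled SMAD4 by HT-ChIPmentation, a form of ChIP-seq that cuts and tags the captured chromatin with a transposase, in alveolar macrophages sorted by flow cytometry from the bronchoalveolar lavage of wild-type C57BL/6J mice aged 9 weeks. The 4 samples were 2 SMAD4 libraries and 2 input libraries made without antibody; with 1 genotype and 1 cell type, the design holds no contrast of conditions. The peak lists of both SMAD4 libraries were analysed, with 16369 peaks in replicate 1 and 19015 in replicate 2, and each had been called against input. Replicate numbers are only names here, and nothing states that the libraries came from separate animals, so the differences between them may be technical.

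C/EBP proteins bind DNA as dimers through the leucine zipper, and members pair with each other and with ATF proteins. C/EBPα and C/EBPβ drive myeloid development, C/EBPδ is induced by inflammation, and C/EBPε acts in the terminal maturation of granulocytes. C/EBPγ lacks a strong activation domain and acts mainly through its partners, and CHOP, the product of Ddit3, is induced in the integrated stress response and dampens other members. SMAD4 is the common partner of the SMADs that carry TGFβ signals to the nucleus, and TGFβ is needed for alveolar macrophages to develop and persist.

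The DNA under the summits that the results turn on is given first, as the plus strand of GRCm38 (mm10), with 100 bases on each side of the summit. For a shared region this summit is the midpoint defined above, which can lie away from the summit of either replicate. Capitals mark every match on either strand to 7 short strings. The CEBP string was TTNNNNAA with purine, pyrimidine, purine, pyrimidine at its middle positions, and the composite C/EBP-ATF string was TGATGCAA. The others were GAGGAAGT for PU.1, CAGACA for the SMAD half-site, GTCTAGAC for the SMAD palindrome, TGANTCA for AP-1 and TGTGGT for RUNX. A match is a run of letters and does not show that a factor was bound. The first 5 sequences come from the Cebpb window. They are the regions with the highest fold and those intergenic ones that held a CEBP match.
Cebpb +65.3 kb, chr2:167754077-167754277: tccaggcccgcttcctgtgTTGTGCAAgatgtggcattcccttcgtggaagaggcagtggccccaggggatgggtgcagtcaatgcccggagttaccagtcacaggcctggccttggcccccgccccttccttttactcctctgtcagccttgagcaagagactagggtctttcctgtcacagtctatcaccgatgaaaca
Cebpb +53.7 kb, chr2:167742564-167742764: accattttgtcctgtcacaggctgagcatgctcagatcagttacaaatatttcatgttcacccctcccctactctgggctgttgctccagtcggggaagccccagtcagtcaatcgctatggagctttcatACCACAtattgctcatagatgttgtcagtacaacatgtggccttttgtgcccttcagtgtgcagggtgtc
Cebpb -39.5 kb, chr2:167649356-167649556: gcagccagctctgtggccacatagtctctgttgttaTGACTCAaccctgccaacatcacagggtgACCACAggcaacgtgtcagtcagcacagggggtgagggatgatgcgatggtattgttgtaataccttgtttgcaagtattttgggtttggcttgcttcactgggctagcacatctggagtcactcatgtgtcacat
Cebpb +71.2 kb, chr2:167759990-167760190: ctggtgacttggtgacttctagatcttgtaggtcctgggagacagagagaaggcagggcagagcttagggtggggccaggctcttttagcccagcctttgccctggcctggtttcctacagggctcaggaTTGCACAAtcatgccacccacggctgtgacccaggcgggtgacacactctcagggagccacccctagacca
Cebpb +21.2 kb, chr2:167709991-167710191: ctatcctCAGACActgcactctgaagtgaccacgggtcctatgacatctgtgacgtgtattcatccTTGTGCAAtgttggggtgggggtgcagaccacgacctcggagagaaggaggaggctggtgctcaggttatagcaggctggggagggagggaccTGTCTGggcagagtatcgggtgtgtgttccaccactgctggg
The next 4 come from the stretch of chromosome 7 that holds Cebpg and lies upstream of Cebpa. They are the region with the SMAD palindrome, the Cebpg intron, the Cebpg promoter and the region nearest to Cebpa.
Pepd intron, Cebpg +29.4 kb, chr7:35027048-35027248: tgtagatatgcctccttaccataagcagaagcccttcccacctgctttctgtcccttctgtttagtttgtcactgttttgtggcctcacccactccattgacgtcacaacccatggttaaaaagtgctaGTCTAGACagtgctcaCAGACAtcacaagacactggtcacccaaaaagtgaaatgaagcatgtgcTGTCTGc
Cebpg intron +1.2 kb, chr7:35055314-35055514: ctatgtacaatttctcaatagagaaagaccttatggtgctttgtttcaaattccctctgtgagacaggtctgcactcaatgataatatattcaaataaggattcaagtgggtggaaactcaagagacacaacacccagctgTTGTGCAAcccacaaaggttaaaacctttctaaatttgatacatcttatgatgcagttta
Cebpg promoter -0.7 kb, chr7:35057155-35057355: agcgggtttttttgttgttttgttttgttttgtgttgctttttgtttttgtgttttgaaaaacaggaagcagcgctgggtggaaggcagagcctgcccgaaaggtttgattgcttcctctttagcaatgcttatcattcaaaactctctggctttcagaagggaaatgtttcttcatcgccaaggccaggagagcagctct
Cebpa -29.5 kb, chr7:35089660-35089860: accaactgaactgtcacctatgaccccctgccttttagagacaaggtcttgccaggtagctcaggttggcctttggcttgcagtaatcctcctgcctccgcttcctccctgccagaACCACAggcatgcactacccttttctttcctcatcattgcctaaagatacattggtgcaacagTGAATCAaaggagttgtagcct
The only shared regions of Cebpd and Cebpe follow, the latter with the highest fold in replicate 2 of all 25.
Cebpd +2.8 kb, chr16:15890022-15890222: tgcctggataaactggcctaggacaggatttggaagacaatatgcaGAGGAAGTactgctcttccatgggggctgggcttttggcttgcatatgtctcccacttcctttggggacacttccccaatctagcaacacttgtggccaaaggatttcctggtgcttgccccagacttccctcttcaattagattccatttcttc
Cebpe -42.5 kb, chr14:54754611-54754811: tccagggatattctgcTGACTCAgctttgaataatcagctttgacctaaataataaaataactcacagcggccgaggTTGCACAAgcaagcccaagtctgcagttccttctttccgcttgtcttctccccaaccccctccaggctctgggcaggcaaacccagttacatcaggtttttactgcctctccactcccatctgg
Last are the 250 bases before the TSS of Ddit3 and Cebpa, as given by RefSeq for GRCm38.p6. The summit of the Ddit3 region lay 89 bp before its TSS, and the summit window held none of the strings. The Cebpa promoter had a peak in replicate 2 alone.
Ddit3 promoter, chr10:127290543-127290792: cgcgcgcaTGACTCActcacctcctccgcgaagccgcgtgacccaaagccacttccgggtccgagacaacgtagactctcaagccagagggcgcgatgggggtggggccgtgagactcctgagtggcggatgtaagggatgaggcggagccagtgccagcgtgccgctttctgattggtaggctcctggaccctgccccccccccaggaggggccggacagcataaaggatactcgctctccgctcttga
Cebpa promoter, chr7:35119043-35119292: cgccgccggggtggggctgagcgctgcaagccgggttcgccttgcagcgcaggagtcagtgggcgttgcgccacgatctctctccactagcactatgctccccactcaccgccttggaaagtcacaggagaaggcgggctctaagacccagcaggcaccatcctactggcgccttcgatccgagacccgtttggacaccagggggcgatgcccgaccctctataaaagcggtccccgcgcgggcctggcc

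The replicates differed in the number of peaks at the family. The windows held 28 peaks of replicate 1 and 41 of replicate 2, which is 34.5 ± 9.19 on average (SD, n = 2). Of the peaks of replicate 1, 26 were shared and 2 (7.1%) had no partner, whereas 16 of the peaks of replicate 2 (39.0%) had none. Over all peaks, 30.6% of replicate 1 and 40.8% of replicate 2 had no partner, so the share without one at the family was lower than over all peaks in replicate 1 and close to it in replicate 2. Of the 16 unpaired peaks of replicate 2, 6 lay in a promoter, taken as 1 kb upstream to 100 bp downstream of a TSS, and neither of the 2 of replicate 1 did. That is 37.5% in replicate 2, where 10.2% of all its 7758 unpaired peaks lay in a promoter. The family peaks were chosen by their distance to a TSS and the others were not, so these shares are not like for like.

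Enrichment is given as the fold of the fragments piled up at the summit over the local background, with 1 added to both. The background was 2.08 fragments at 79.3% of the summits in replicate 1 and 1.22 at 80.9% in replicate 2. The same number of fragments at background therefore gave a fold 1.39 times higher in replicate 2, and folds are not compared between replicates without the fragments behind them. The median fold of the 25 regions was 6.17 in replicate 1 and 9.02 in replicate 2, beside 6.82 and 9.48 over all shared regions. These folds rested on a median of 18 and 19 fragments, against 20 and 21 over all shared regions. The number of fragments was higher in replicate 2 at 13 regions, higher in replicate 1 at 10 and equal at 2. The folds of the replicates correlated over the 25 regions with a Spearman rho of 0.66, and with 0.78 over all shared regions, which come from the same libraries. By the smaller fold of the pair, 11 of the 25 regions were in the upper 50% of all shared regions, 4 in the upper 25% and 1 in the upper 10%.

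**Figure D1:**
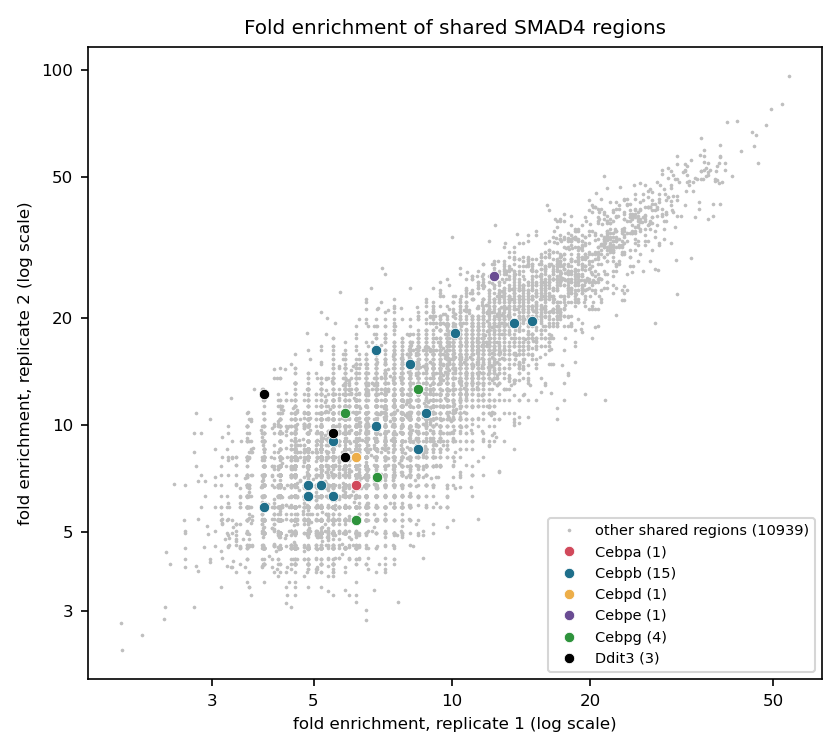
Fold enrichment of the shared SMAD4 regions in replicate 1 (x axis, log scale) and replicate 2 (y axis, log scale). Grey points are the other shared regions, and coloured points are the 25 regions of the C/EBP genes, each drawn once for the gene whose TSS was nearer. The Cebpe region has the highest fold in replicate 2, at 26.2, and the Ddit3 promoter, at 3.90 and 12.2, lies on the upper edge of the cloud.

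Cebpb, which encodes C/EBPβ, had the most regions of the family. It is a gene of 1 exon at chr2:167688915-167690432 on the plus strand. The window of 100 kb held 15 shared regions, more than 99.9% of protein-coding genes have at this distance, and 17 genes (0.0813%) had as many or more. At 50 kb it held 7, more than 98.9% of genes. As background, 54.9% of genes had at least 1 shared region within 100 kb, with a median of 1 per gene, and 39.1% had one within 50 kb, with a median of 0. The 15 regions were not evenly placed, with 13 downstream of the TSS and 2 upstream. Those downstream fell into a stretch of 6 regions from 1.3 to 28.5 kb and a stretch of 7 from 53.7 to 89.1 kb. None of the 15 had Cebpb as the gene with the nearest TSS, sought among all 26089 genes with curated transcripts, noncoding ones included. That gene was A530013C23Rik for 6 of them and Gm14321 for 7, and 12 of the 15 were intergenic. Between Cebpb and the downstream regions, no gene other than A530013C23Rik and Gm14321 had a TSS.

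The 2 regions of highest fold at Cebpb lay in the far stretch. At +65.3 kb (chr2:167753815-167754574) the fold was 14.9 in replicate 1 and 19.7 in replicate 2, from 45 and 46 fragments, higher in its smaller fold than 90.8% of all shared regions. At +53.7 kb (chr2:167742342-167742923) it was 13.6 and 19.4, from 41 and 42 fragments. Both libraries gave nearly the same number of fragments at the summits of the 2 regions. The first window held the CEBP match TTGTGCAA, and the second held a RUNX match and no CEBP match. At +71.2 kb (chr2:167759780-167760363) the fold was 8.77 and 10.8, from 26 and 23 fragments, with the match TTGCACAA 34 bp from the summit. The remaining 4 regions of this stretch, between 84.3 and 89.1 kb, had folds of 4.87 to 8.45 in replicate 1 and 6.32 to 9.93 in replicate 2, and the last of them lay in an intron of Gm14321. One of these, at +87.5 kb, joined 2 peaks of replicate 1 to 1 of replicate 2.

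The near stretch was weaker. Its intergenic regions, from 21.2 to 28.5 kb, had folds of 3.90 to 8.12 in replicate 1 and 5.87 to 14.9 in replicate 2. The highest, at +21.8 kb (chr2:167710544-167710905), rested on 24 and 32 fragments. The lowest, at +28.1 kb (chr2:167716891-167717144), rested on 11 and 12 fragments, and only 3.3% of shared regions had a lower smaller fold. At +21.2 kb (chr2:167709996-167710176), with folds of 4.87 and 6.32 from 14 and 13 fragments, the match TTGTGCAA stood 30 bp from the summit between 2 SMAD half-sites. A peak of replicate 2 without a partner lay between the stretches, at +35.0 kb, with a fold of 5.41 from 11 fragments.

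The only region inside Cebpb itself lay in its 3′ UTR at +1.3 kb (chr2:167690142-167690332), in the exon and 553 bp from a TSS of A530013C23Rik. Its fold was 6.17 in replicate 1 and 5.41 in replicate 2, from 18 and 11 fragments, so replicate 1 was the higher. It was the only window of the 25 with the composite string TGATGCAA, and it also held a CEBP match, TTATATAA. In replicate 2 alone, the Cebpb promoter had a peak 583 bp upstream of the TSS with a fold of 4.06 from 8 fragments (q = 0.00312), and another peak stood 1069 bp upstream with a fold of 5.87 from 12 fragments. On the upstream side, the region in an intron of Tmem189 at -39.5 kb (chr2:167649200-167649770) had a fold of 10.2 and 18.1 from 49 and 59 fragments. Replicate 2 had an unpaired peak in the same gene at -32.2 kb, with a fold of 9.02 from 19 fragments. The region farthest from the gene, at -98.3 kb (chr2:167590380-167590840) and nearest to Ube2v1, had 6.82 and 16.2, from 20 and 35 fragments. It was just inside the window, and the nearest region outside the window lay on the other side of the gene, 144.8 kb downstream, with folds of 7.15 and 13.1.

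**Figure D2:**
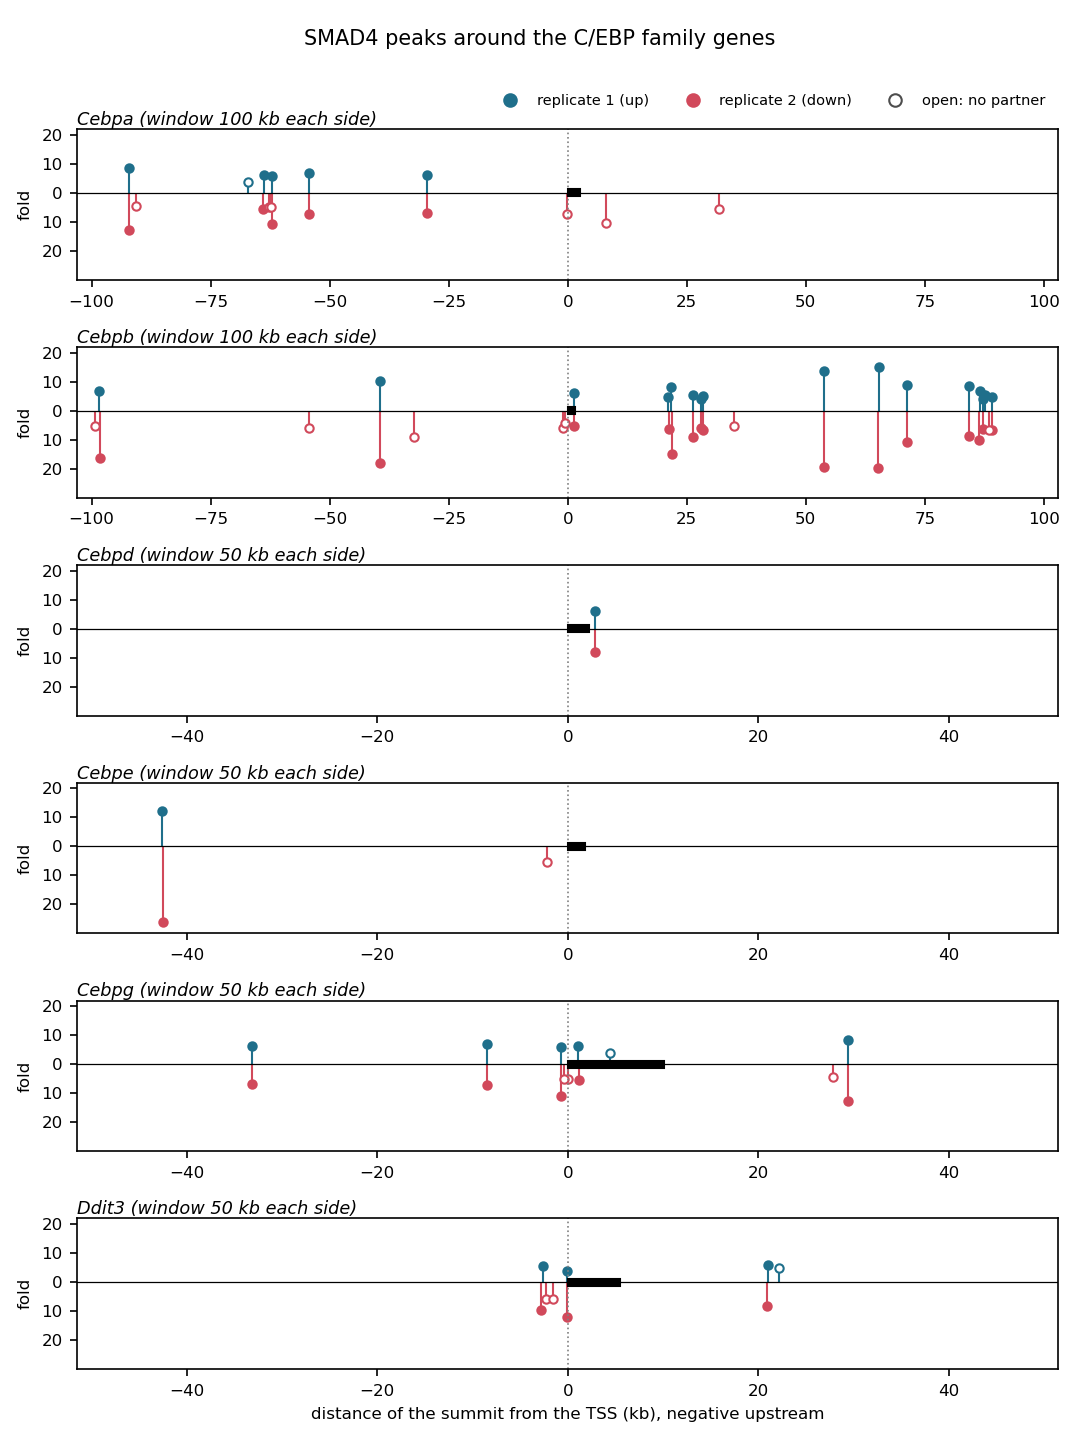
SMAD4 peaks around the 6 genes, with the distance of the summit from the TSS in kb (x axis) and the fold enrichment (y axis) of replicate 1 drawn upward and of replicate 2 drawn downward. Filled points are peaks with a partner in the other replicate, open points have none, and the black bar is the gene. Filled points downstream of Cebpb fall into 2 stretches, with 1 open point of replicate 2 between them, and the peaks nearest to the Cebpa TSS are of replicate 2 alone.

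Cebpa and Cebpg lie on chromosome 7 with their TSSs 62727 bp apart, and the windows of both held the same 5 shared regions. These 5 are therefore 1 set of observations and not 2. Cebpa, which encodes C/EBPα, is a gene of 1 exon at chr7:35119293-35121928 on the plus strand. All 5 regions lay upstream of it, at 92.1, 63.9, 62.0, 54.2 and 29.5 kb, and only the last had Cebpa as the gene with the nearest TSS. At 100 kb, 91.5% of genes had fewer regions than Cebpa, and at 50 kb Cebpa had 1 region.

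The region 29.5 kb upstream of Cebpa (chr7:35089580-35089921) had a fold of 6.17 in replicate 1 and 6.77 in replicate 2, from 18 and 14 fragments. Its window held an AP-1 match, TGAATCA, and a RUNX match. No shared region lay in the Cebpa promoter, in the exon or downstream of the gene. Replicate 2 had 3 peaks there without a partner. The promoter peak (chr7:35118865-35119292), 206 bp before the TSS, had a fold of 7.22 from 15 fragments (q = 5.22e-10). The peak 8.0 kb downstream (chr7:35127111-35127544) had 10.5 from 24 fragments (q = 1.80e-19), the highest fold of the 16 unpaired peaks of replicate 2, and the peak at 31.7 kb had 5.41 from 11 fragments. Replicate 1 had no peak at any of these 3 places, and its list gives no value for places that were not called.

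Cebpg, which encodes C/EBPγ, has 2 exons at chr7:35046422-35056566 on the minus strand. It was the nearest gene for 4 of the 5 regions, and 96.7% of protein-coding genes had fewer than 5 within 50 kb. The region of highest fold was in an intron of Pepd, the neighbouring peptidase gene, 29.4 kb downstream of the Cebpg TSS (chr7:35026924-35027367), with 8.45 and 12.6 from 25 and 27 fragments. Its summit lay on the same base in both replicates. It was the only window of the 25 with the SMAD palindrome, GTCTAGAC, which stood 33 bp from the summit, and it also held 2 SMAD half-sites. The palindrome was in 0.465% of all shared windows.

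In the Cebpg intron (chr7:35055246-35055580), 1152 bp after the TSS, the fold was 6.17 and 5.41 from 18 and 11 fragments, and the window held the CEBP match TTGTGCAA. In the promoter (chr7:35057146-35057503), 689 bp before the TSS, the fold was 5.85 and 10.8 from 17 and 23 fragments, and the window held none of the strings. The intergenic region 8.5 kb upstream (chr7:35064835-35065253) had 6.86 and 7.12 from 22 and 16 fragments. Replicate 2 had 2 further promoter peaks, 348 bp before and 4 bp after the TSS, each with a fold of 4.96 from 10 fragments. An intron peak of replicate 1, 4.5 kb after the TSS, had 3.90 from 11 fragments. The intron and promoter regions thus lay on both sides of the Cebpg TSS in both replicates.

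Ddit3, which encodes CHOP, has up to 4 exons at chr10:127290793-127296288 on the plus strand. It had 3 shared regions, and 89.7% of genes had fewer within 50 kb. The promoter region (chr10:127290291-127290790) had the largest ratio of folds between the replicates in the family. Its fold was 3.90 in replicate 1 and 12.2 in replicate 2, from 11 and 26 fragments. The ratio of 3.12 between them was higher than at 99.6% of all shared regions, while the median ratio was 1.39 both over the family and over all. The summit window had a GC content of 62.7%, the highest of the 25.

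The other regions of Ddit3 were nearer to other genes. The region 2.7 kb upstream (chr10:127287899-127288298) lay in an intron of Mbd6 and had 5.52 and 9.48 from 16 and 20 fragments. The region at +21.0 kb (chr10:127311613-127311988) lay 6 bp from a TSS of Mars1, the methionyl-tRNA synthetase gene, and had 5.85 and 8.12 from 17 fragments in each replicate. Replicate 2 had 2 unpaired peaks between the first of these and the Ddit3 promoter, each with a fold of 5.87 from 12 fragments, and replicate 1 had 1 at +22.2 kb with 4.87 from 14 fragments.

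Cebpd and Cebpe, which encode C/EBPδ and C/EBPε, had 1 shared region each, where 60.9% of genes had none, and neither had a peak in its promoter in either replicate. Cebpd is a gene of 1 exon at chr16:15887286-15889545 on the plus strand. Its region (chr16:15889942-15890368) lay just past the end of the gene, 2.8 kb from the TSS, with a fold of 6.17 and 8.12 from 18 and 17 fragments. It was the only window of the 25 with the PU.1 string, GAGGAAGT, and no other peak of either replicate lay in the Cebpd window. The next shared region was 186.3 kb away, with folds of 26.6 and 43.8.

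Cebpe has 2 exons at chr14:54710363-54712174 on the minus strand. Its region lay 42.5 kb upstream in an intron of Slc7a8, an amino acid transporter gene (chr14:54754528-54755017), whose TSS was the nearest at 27175 bp. The fold was 12.3 in replicate 1 and 26.2 in replicate 2, from 37 and 57 fragments, and 85.3% of all shared regions had a lower smaller fold. The window held the CEBP match TTGCACAA, 19 bp from the midpoint of the replicate summits, which were 100 bp apart, and the AP-1 match TGACTCA. Nearer to the gene, replicate 2 had a peak 2184 bp upstream with a fold of 5.41 from 11 fragments, and replicate 1 had none. The next shared region outside the window lay 56.4 kb upstream with folds of 6.17 and 12.6, and 3 regions lay within 100 kb. For the other windows the nearest region outside was farther, at 904.5 kb from Cebpa, 841.8 kb from Cebpg and 126.0 kb from Ddit3.

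Promoter signal was found at some members and not at others. A shared region lay in the promoter of 2 of the 6 genes, Cebpg and Ddit3, and over all protein-coding genes 3.10% had one. Both calls depended on the limits. The Ddit3 call rested on a peak of replicate 1 with a q of 0.00157, and with a q of at most 0.001 or a fold of at least 5 it was lost and 1 gene remained, Cebpg. With 50% reciprocal overlap neither gene had one. A promoter peak of replicate 1 was found at the same 2 genes, against 3.59% of all genes. In replicate 2 the promoters of Cebpa, Cebpb, Cebpg and Ddit3 had one, 4 of the 6, against 6.50% of all genes. In the RefSeq promoter table, 4 of the 6 genes were matched, and Cebpd and Cebpe were not. The 250 bases before the TSS had a GC content of 81.6% at Cebpb, 70.8% at Cebpg, 66.4% at Cebpa and 64.8% at Ddit3. None of the 4 promoters, taken to 50 bases after the TSS, held the CEBP string, which 5.05% of 32851 promoters held. The AP-1 string stood in the Ddit3 promoter alone, outside the summit window of the Ddit3 region, and 7.81% of all promoters held it.

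**Figure D3:**
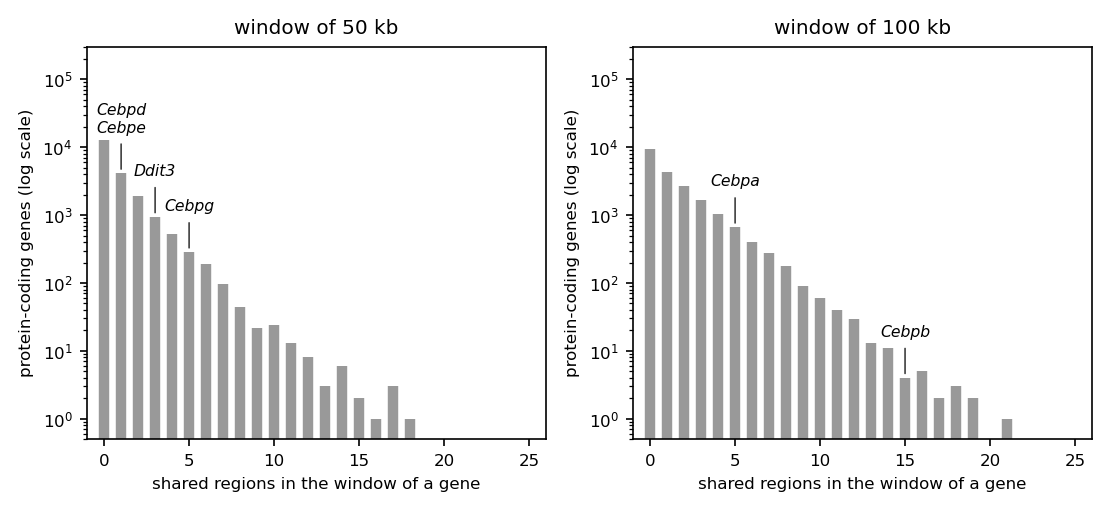
Number of protein-coding genes (y axis, log scale) by the number of shared SMAD4 regions in their window (x axis), for windows of 50 kb and 100 kb. The members are marked at their own counts, with Cebpb at 15 in the right tail and Cebpd and Cebpe at 1.

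By position, 14 of the 25 regions (56.0%) were intergenic, 6 (24.0%) were in introns, 4 (16.0%) in promoters of any gene, the Cebpb 3′ UTR region among them, and 1 (4.0%) at the end of a gene. Over all shared regions 40.5% were intergenic, 49.3% in introns and 6.42% in promoters. Among all curated genes, coding or not, a member of the family had the nearest TSS for 7 of the 25, and another gene was nearer for 18. The summit windows of the family had a median GC content of 51.2%, against 43.8% over all shared regions, with a range from 36.8% to 62.7%. The median width was 409 bp against 440, and the summits of the replicates were a median of 46 bp apart against 49. The widest gap in the family was 421 bp, at the Cebpb +87.5 kb region. GC content and the share in promoters were both higher than over all shared regions, and the part of GC content in these values was not tested. The family windows were set around TSSs, so the share in promoters is not like for like with that over all regions.

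Matches to the strings were about as frequent at the family as elsewhere. The CEBP string stood in 6 of the 25 windows (24.0%) and in 23.6% of all 10964. These 6 were 4 at Cebpb, 1 at Cebpg and 1 at Cebpe, and none stood in a window of Cebpd or Ddit3. A different string, TTGCNNAA, fits some of the same runs of letters and others that the CEBP string does not. It stood in 11 windows (44.0%) against 40.9% of all. The SMAD half-site stood in 6 windows (24.0%) against 19%, the RUNX string in 6 (24.0%) against 26.4%, and the AP-1 string in 3 (12.0%) against 12.3%. The PU.1 and composite strings and the SMAD palindrome stood in 1 window each (4.0%), against 8.0%, 4.62% and 0.465% of all windows. None of the 7 strings was found in 8 of the 25 windows. Among the 1000 shared regions of highest fold, 35.3% held the CEBP string.

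**Figure D4:**
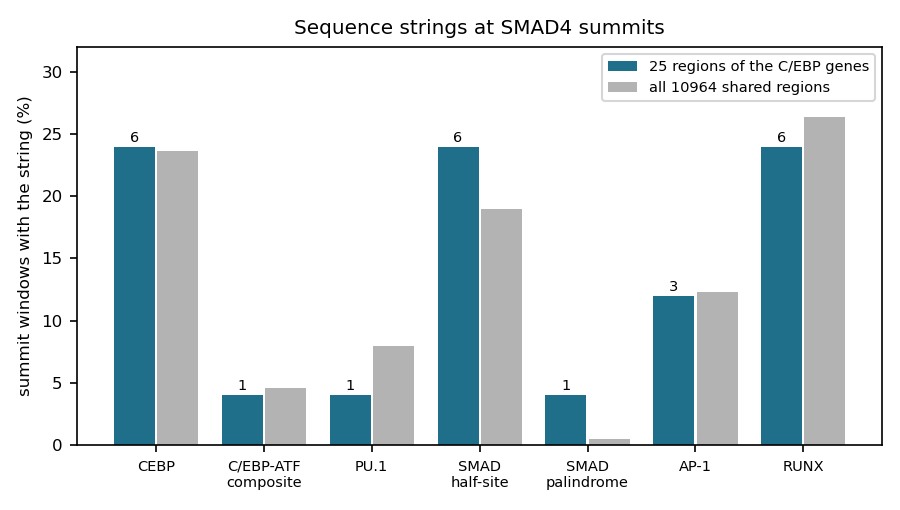
Share of summit windows of 201 bases that hold each string (y axis, percent) for the 25 regions of the C/EBP genes (blue, with the number of windows above the bar) and for all 10964 shared regions (grey). Bars of 1 window stand at 4.0%, and the CEBP and AP-1 bars are nearly level with those of all regions.

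Genes that work with the family were counted in windows of 50 kb, beside the 39.1% of all genes with a shared region there. Regions near a gene were counted whatever other gene they were near. Among 12 bZIP partners and regulators, 8 had at least 1, with a median of 1 region. Trib1, a pseudokinase that directs C/EBPα to degradation, had 8, with highest folds of 25.02 and 32.5. Nfil3, a bZIP repressor, had 7, with 27.0 and 46.0, and Batf3, an AP-1 partner, had 4. Batf2, Hlf, Tef and Trib2 had none. Atf4, which pairs with C/EBPγ and induces Ddit3, had 1 region with folds of 7.80 and 12.6.

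Among 14 known C/EBP target genes, 12 had a shared region, beside 39.1% of all protein-coding genes, with a median of 2.5. Some of these genes are also alveolar macrophage markers, as given below. Pparg, the lipid-sensing nuclear receptor that marks alveolar macrophages, had 11. The lysozyme genes Lyz1 and Lyz2 lie side by side and had 6 and 5, which include the same region with folds of 54.0 and 96.1. Mpo and Camp, granule genes of neutrophils, had none, whereas Ltf, Lcn2 and Elane, which are also granule genes, had 4, 2 and 1. Among 8 genes of CHOP and the integrated stress response, 6 had a region, with a median of 1.5. Ero1a, an oxidase of the endoplasmic reticulum, and Sesn2, a stress-induced sestrin, had 3 each, Chac1 and Asns had 2, and Ppp1r15a and Ddit4 had none.

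As a check of the labelled cells, all 8 alveolar macrophage markers had a shared region within 50 kb, beside 39.1% of all protein-coding genes. Among the 8 were Siglecf, Itgax, Marco and Car4. Chil3, Pparg and Fabp4 were in this list and in that of the C/EBP targets, so they are counted in both. Of the B cell markers 1 of 3 had one, as did 1 of 3 for T cells, 1 of 3 for neutrophils, 2 of 3 for alveolar epithelium and 1 of 2 for endothelium. A region near a gene does not show that the gene is expressed, so these counts are a description of the peaks and do not measure the purity of the sort.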

How the data were processed

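SMAD4 HT-ChIPmentation was done with alveolar macrophages of wild-type mice, and per the labels and the methods the authors used cutadapt for trimming, Bowtie2 for alignment to mm10, SAMtools for filtering and MACS3 for narrow peaks at a q limit of 0.05 in each replicate against input. Replicates were not pooled. The deposited lists give a score, a fold enrichment ratio, and −log10 p and q values for each peak. Read totals are not used here. Whole fragments at each summit were solved from the deposited fold and −log10 p, and gave back the −log10 p within 0.01 for 100% and 99.99% of peaks. Precision is therefore set by 8 to 59 fragments for each value at the family, which covers counting error only.

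Overlaps, windows, features and strings were computed with pandas 2.3.3, numpy 2.4.6 and scipy 1.17.1 under Python 3.11.15 and checked on simulated data. Gene positions came from the 45657 curated RefSeq transcripts of GRCm38.p6, whose chromosome ends no peak passed. The order of a peak's features was promoter, gene end, exon, intron and intergenic. The members, the gene lists and the strings were chosen with earlier results of these data known. Genes named from a list are those with the most regions and those with none. Atf4, Ltf, Lcn2, Elane, Chil3, Fabp4 and 4 macrophage markers were named after their values were seen. No test was made, since the series holds 1 condition. The 2 input samples were not analysed here on their own. Alternatives to the overlap, the windows, the peak limits and the CEBP string were tried.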

Additional observations from a re-analysis of the deposited data

How the results depend on the processing

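All 6 genes had a shared region with 50% reciprocal overlap, summits within 100 bp, q at most 0.001 or fold at least 5. The same held with windows of 50 or 100 kb for every gene. Across these alternatives the 25 regions numbered 17 to 27. At the main limits, 39.1% of all protein-coding genes had a shared region within 50 kb and 54.9% within 100 kb. The share over all genes at the other limits is not given here. With windows of 25 kb there were 10 regions, and counting only regions with a member as nearest gene left 7, each at 4 of the 6 genes. Cebpb had 7 regions at 50 kb, 3 at 25 kb and 0 by nearest gene, coding or not. Leaving out a replicate, so that every peak of the other counts, gave 28 to 41. Without replicate 1, Cebpa had 11 regions in place of 5, Cebpg 8 in place of 5, Ddit3 5 in place of 3 and Cebpe 2 in place of 1. With 50% reciprocal overlap, Cebpa and Cebpg had 3 and Ddit3 had 1. In alternatives chosen after seeing the data, the 2 genes with a shared promoter region became 1 with q at most 0.001 or fold at least 5 and 0 with 50% reciprocal overlap, stayed 2 with summits within 100 bp, and were 2 to 4 when a replicate was left out. With TTGCNNAA in place of the CEBP string, 11 windows matched rather than 6. Of 60 counts per gene under the alternatives, 42 stayed within 1.5 times and 18 moved, and the cause was not tested beyond the construction of each alternative. No paired analysis was possible because the labels give no shared replicate numbers and the series holds 1 condition. Depth limits the regions of 11 to 14 fragments most, and the lists give no value where no peak was called.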
